A study of Rattus norvegicus with 6 samples.

Results

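The transgelin and calponin genes analysed here were Tagln, Tagln2, Cnn1 and Cnn2, which is 4 of the 23940 genes in the deposited count table. The members were chosen by name from 5 candidates, Tagln, Tagln2, Cnn1, Cnn2 and Cnn3, of which the first 4 have a name that the study's table of genes pairs with an Ensembl identifier. That table is ordered by the p-value of TE-RMS against planar astrocytes, and its first 1517 genes could be read, so the genes were in effect selected on the contrast between the conditions. By the p-value of the same contrast in DESeq2 they ranked 2 (Tagln), 11 (Cnn1), 42 (Cnn2) and 396 (Tagln2). Tagln2 was therefore the member nearest to the end of the part that was read, and Cnn3 was not analysed here. Every other gene named below comes from the same 1517 genes. For this reason differences between conditions are given as a description with no p-value, also for the other named genes, and tests are read only for differences between runs.

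RNA-seq was performed on astrocytes from the cortex of newborn Sprague-Dawley rats, used at passage 4 and cultured for 4 days in vitro in 2 conditions, with 3 libraries each. TE-RMS astrocytes had been seeded into collagen-coated agarose microchannels, where they bundled into a tissue-engineered rostral migratory stream, and planar astrocytes had been plated on a flat layer of collagen in the same medium. Each run used different animals and gave 1 library of each condition, and the runs are named by the month in their labels, July, September or October. TE-RMSs were made on 3 sequential days, selected for tight bundling, preserved, frozen and pooled within a run. Planar wells were plated on the last of these days and extracted fresh. Culture format therefore cannot be told apart from preservation, selection, pooling or day of fabrication. Library totals ran from 54601354 to 77277336 counts. All 4 genes had at least 769 counts in every library (95% Poisson interval 716 to 825, for counting error only) and so passed the filter of 10 counts in total.

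Transgelins and calponins are small actin-binding proteins that share a calponin homology domain at one end and calponin-like repeats at the other. Tagln encodes transgelin and Cnn1 encodes calponin 1, both known as markers of differentiated smooth muscle, where serum response factor (SRF) and its myocardin-family cofactors drive their transcription through CArG boxes. Tagln2 encodes transgelin 2 and Cnn2 encodes calponin 2, which are found in many cell types and stabilize actin filaments. Both Tagln and Cnn1 are also known to respond to TGF-beta and to tension on the actin cytoskeleton.

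In mRatBN7.2, the build of the files, Tagln (ENSRNOG00000017628) lies on chromosome 8 from 46222472 to 46230668 on the reverse strand. Tagln2 (ENSRNOG00000008301) lies on chromosome 13 from 84967009 to 84973972 and Cnn1 (ENSRNOG00000027736) on chromosome 8 from 20632338 to 20641098, both on the forward strand. Cnn2 (ENSRNOG00000043044) lies on chromosome 7 from 9712516 to 9719656 on the reverse strand. All 4 are annotated as protein-coding, and each value below covers the whole gene.

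As background on the regulatory sequence of the members, the 250 bases before the annotated start of each gene were read from RefSeq promoters of GRCr8, a later build than that of the counts, and 3 of the 4 genes matched: Tagln2 (chr13:87499158-87499407, forward strand), Cnn1 (chr8:28908187-28908436, forward strand) and Cnn2 (chr7:10370313-10370562, reverse strand). The sequences are shown 5′ to 3′, and capitals mark matches on either strand to the CArG box bound by SRF, to CATTCC, the core of the element bound by TEAD factors, or to the TATA box TATAAA.
Tagln2: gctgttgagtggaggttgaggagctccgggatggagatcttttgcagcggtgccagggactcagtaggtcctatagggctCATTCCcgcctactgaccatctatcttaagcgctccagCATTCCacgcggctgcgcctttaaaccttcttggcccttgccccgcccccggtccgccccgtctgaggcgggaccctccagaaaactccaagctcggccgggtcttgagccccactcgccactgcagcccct
Cnn1: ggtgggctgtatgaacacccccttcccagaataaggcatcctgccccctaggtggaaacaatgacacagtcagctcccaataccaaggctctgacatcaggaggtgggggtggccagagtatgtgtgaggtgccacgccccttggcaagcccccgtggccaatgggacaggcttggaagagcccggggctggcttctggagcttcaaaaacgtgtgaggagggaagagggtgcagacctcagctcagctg
Cnn2: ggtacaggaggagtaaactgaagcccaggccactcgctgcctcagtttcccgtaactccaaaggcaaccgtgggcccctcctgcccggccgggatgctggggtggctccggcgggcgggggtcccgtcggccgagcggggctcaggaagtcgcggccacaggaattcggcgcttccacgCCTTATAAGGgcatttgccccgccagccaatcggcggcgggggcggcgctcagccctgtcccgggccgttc

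The Cnn2 window held 1 CArG box, which starts 71 bases before the start site, and no match to the other motifs. Among all 33469 promoter windows of this length, 1.5% held a CArG box. The Tagln2 window held 2 matches to CATTCC, against at least 1 in 12.1% of all windows, and neither of the other motifs. The Cnn1 window held none of the 3, and TATAAA, found in 12.9% of all windows, was in none of the 3 sequences. These matches describe letters in a short window and were not tested for binding.

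Levels are given as CPM, the TMM-normalized counts scaled to a common library size, on which a gene can be compared between libraries. Series of 3 values are in run order, with July first and October last. No transcript lengths were used, so CPM of one gene are not compared with those of another, except to say which marker gave the most counts to a summed level.

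Tagln was present at 5917 CPM in the July, 615 CPM in the September and 1316 CPM in the October planar library. The TE-RMS libraries had 391, 47.4 and 58.3 CPM in the same order. The highest TE-RMS library, July, lay below the lowest planar library, September, although the planar libraries spanned a 9.62-fold range among themselves. Within runs, TE-RMS astrocytes had 15.1-fold, 13.0-fold and 22.6-fold less Tagln than the planar astrocytes of the same run. The fitted log2 fold change was -4.04 (standard error 0.22), and 789 of the 16331 tested genes had a lower one.

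Cnn1 had 315 CPM in the July, 80.5 CPM in the September and 274 CPM in the October planar library. In TE-RMS astrocytes its level was nearly flat, at 13.6, 11.4 and 14.2 CPM. No library overlapped between the conditions, and the TE-RMS libraries differed by no more than 1.25-fold from each other while the planar ones differed by up to 3.92-fold. The ratio within a run was 23.3-fold in July, 7.07-fold in September and 19.3-fold in October. The smaller September ratio went with the low September planar library. The fitted log2 fold change was -3.89 (standard error 0.30).

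Planar astrocytes had 505, 184 and 282 CPM of Cnn2, and TE-RMS astrocytes had 132, 52.6 and 62.6 CPM. The conditions did not overlap, and both followed the same order of runs. TE-RMS astrocytes had 3.81-fold, 3.50-fold and 4.50-fold less Cnn2 within runs, the narrowest spread of the 4 genes (log2 ratio -1.97 ± 0.19, SD, n = 3 runs). The fitted log2 fold change was -1.97 (standard error 0.17).

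For Tagln2 the levels were 323, 271 and 37.4 CPM in planar astrocytes against 78.3, 81.1 and 21.5 CPM in TE-RMS astrocytes. Here the conditions overlapped, since the October planar library lay below the July and September TE-RMS libraries. Within runs TE-RMS astrocytes had 4.13-fold less in July, 3.34-fold less in September and 1.74-fold less in October. The fitted log2 fold change was -1.53 (standard error 0.23).

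**Figure D1:**
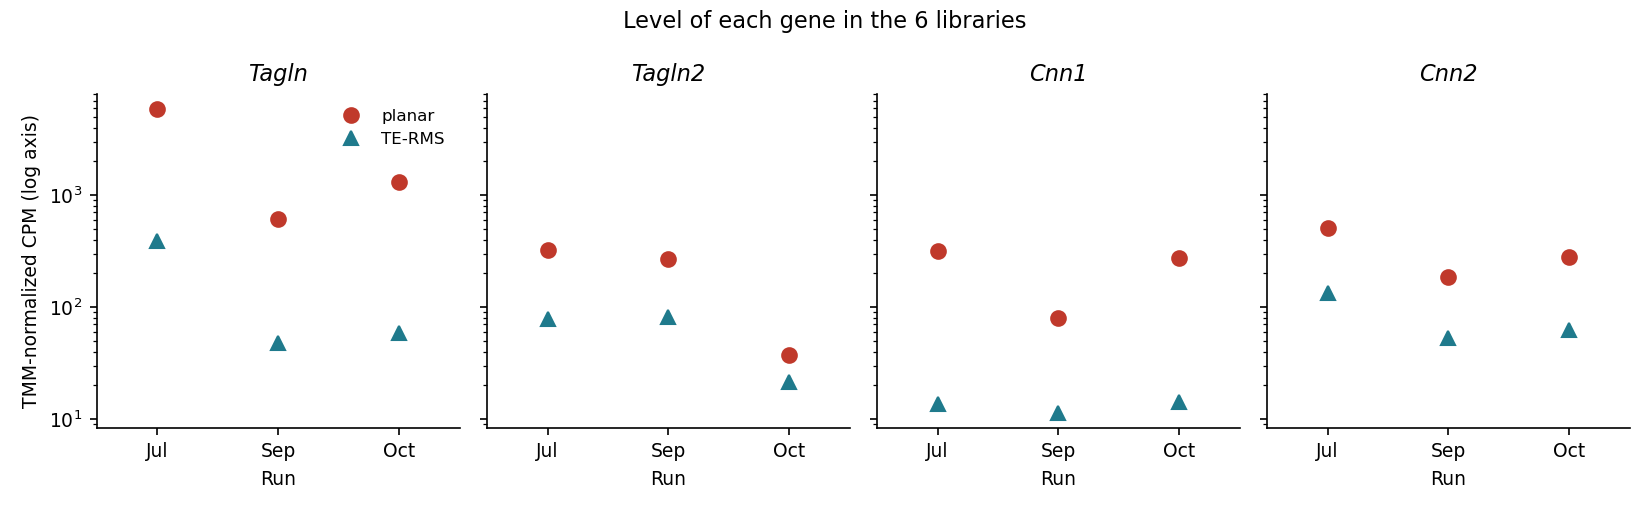
Level of Tagln, Tagln2, Cnn1 and Cnn2 in each of the 6 libraries. The horizontal axis gives the run and the vertical axis TMM-normalized CPM on a log scale, with circles for planar and triangles for TE-RMS libraries. Every triangle lies below the circle of its run, and only in Tagln2 does a circle (October, 37.4 CPM) lie below triangles of other runs.

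All 4 genes were lower in the TE-RMS library of every run, as were 26.8% of the 16331 tested genes. In 3 of them the 3 TE-RMS libraries lay wholly below the 3 planar ones, as did 16.1% of tested genes. Between conditions, edgeR's quasi-likelihood fit, blocked by run, called 9.28% of tested genes lower and 9.36% higher in TE-RMS astrocytes, and since this contrast chose the members, nothing is read from their counts. By mean log2 ratio the 4 genes fell into a steep pair, Tagln (-4.04 ± 0.41, SD, n = 3 runs) and Cnn1 (-3.88 ± 0.92), and a shallow pair, Cnn2 (-1.97 ± 0.19) and Tagln2 (-1.53 ± 0.65). In every run both genes of the steep pair had a lower log2 ratio than both genes of the shallow pair. Within each pair the values did not differ beyond their spread over runs, and Cnn1 had the lower log2 ratio of the steep pair in July but not in the other runs. Across tested genes with a count in both libraries of a run, the median log2 ratio was -0.02, -0.03 and -0.02 in July, September and October. The RNA came from bulk cultures, in which fewer cells that express a gene and less of its RNA per cell cannot be told apart.

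**Figure D2:**
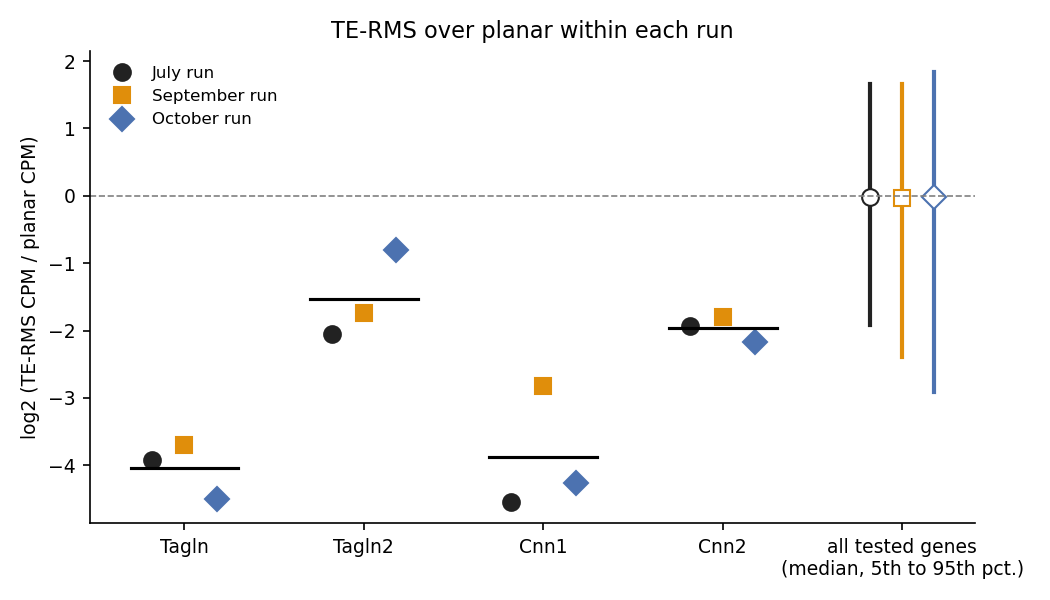
Log2 ratio of TE-RMS over planar CPM within each run for the 4 genes. At the right are the median (open symbols) and the 5th to 95th percentile (vertical lines) of tested genes. These cover only tested genes with a count in both libraries of the run. Symbols and colours mark the runs and horizontal bars the mean of 3 runs. Tagln and Cnn1 lie between -4.54 and -2.82, and Cnn2 and Tagln2 between -2.17 and -0.80.

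Reads of Tagln may be shared with a neighbour. The end of Pcsk7, which encodes a proprotein convertase on the opposite strand, overlaps Tagln on chromosome 8 from 46222472 to 46224705, a stretch of 2234 bases, and the library kit was non-stranded. Pcsk7 had 58.5, 23.3 and 31.4 CPM in planar and 17.2, 4.99 and 7.62 CPM in TE-RMS astrocytes. Its level ran in the same order over the runs as that of Tagln in both conditions. How many of its counts came from Tagln RNA was not tested. Among the 1517 genes with a paired identifier, no other gene overlapped any of the 4, and in RefSeq's annotation of GRCr8 none of them overlapped another gene.

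Ratios between 2 genes within a library show whether members kept their proportions, and their change between conditions does not depend on gene length. The count ratio of Tagln to Cnn2 was 11.7, 3.35 and 4.67 in planar against 2.95, 0.901 and 0.932 in TE-RMS astrocytes. The conditions did not overlap, and the log2 ratio was lower in TE-RMS astrocytes by similar amounts in each run, with changes of -1.99, -1.89 and -2.33 (mean -2.07 ± 0.23, SD, n = 3 runs). The 2 calponins changed their proportion too. Cnn1 to Cnn2 was 0.625, 0.438 and 0.974 in planar and 0.102, 0.217 and 0.227 in TE-RMS libraries, again without overlap, with a mean log2 change of -1.91 ± 0.81.

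The ratio of the 2 transgelins, Tagln to Tagln2, was 18.3, 2.27 and 35.2 in planar and 4.99, 0.584 and 2.71 in TE-RMS libraries. It was lower in the TE-RMS library of each run, with a mean log2 change of -2.51 ± 1.03, but the conditions overlapped because the September planar library had a low ratio. With 1 run left out, that mean change ranged from -2.828 without July to -1.915 without October. Tagln2 to Cnn1 was 1.02, 3.37 and 0.136 in planar and 5.78, 7.12 and 1.51 in TE-RMS libraries. Each run had the larger ratio in its TE-RMS library, with a mean log2 change of 2.35 ± 1.20, but the conditions overlapped, since the September planar ratio lay above the October TE-RMS ratio. Here the mean change was 2.98 without September and 1.79 without October.

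The mean change of the remaining pairs was smaller than its spread over runs. Tagln to Cnn1 had count ratios of 18.8, 7.64 and 4.80 in planar and 28.8, 4.16 and 4.10 in TE-RMS libraries, and its log2 change of 0.62, -0.88 and -0.23 had no common sign. Tagln2 to Cnn2 had log2 changes of -0.12, 0.06 and 1.37, with the change confined mostly to October, when the planar ratio was 0.133 and the TE-RMS ratio 0.344.

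**Figure D3:**
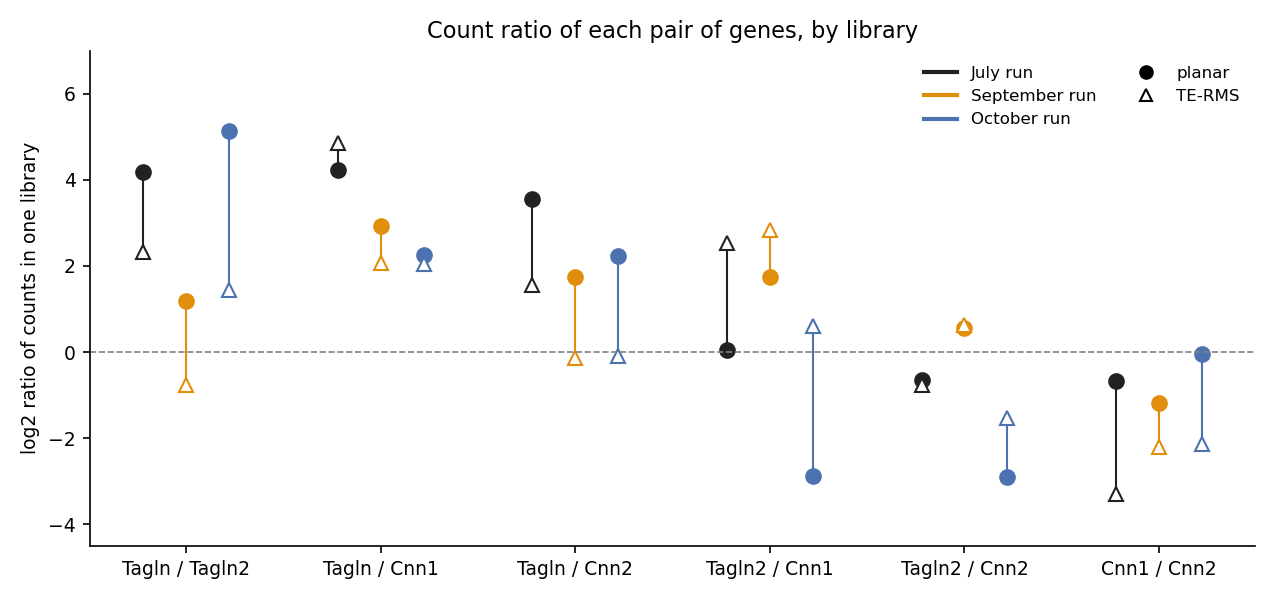
Log2 ratio of counts for each pair of the 4 genes within each library. Circles are planar and triangles TE-RMS libraries, vertical lines join the libraries of one run, and colours mark the runs. Triangles lie below all circles for Tagln to Cnn2 and for Cnn1 to Cnn2, whereas for Tagln to Cnn1 the sign of the change differs between runs.

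The rule that chose the genes used the difference between conditions and not that between runs, but the choice was made with earlier results known, and both tests share the residual spread. The run terms were tested jointly in edgeR's quasi-likelihood model with the condition included, over all 16331 genes, and passed an adjusted p of 0.05 in 3.21% of them. Among the 1517 genes with a paired identifier, which have small p-values for the condition, the share was 11.8%. The test called 3 of the 4 genes, Tagln, Tagln2 and Cnn2, and did not call Cnn1.

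Tagln differed most between runs, with an adjusted p of 4.35e-05 and rank 7 of the 16331 genes by p. Its July library was the highest in both conditions, by 9.62-fold over September in planar and 8.26-fold in TE-RMS astrocytes, and by 4.50-fold and 6.71-fold over October. Relative to July, September had a fitted log2 change of -3.15 (standard error 0.25, adjusted p = 7.23e-05) and October one of -2.44 (standard error 0.25, adjusted p = 0.000450). October and September differed by 0.71 (standard error 0.24), which did not pass the test (adjusted p = 0.207). The July TE-RMS library, at 391 CPM, was the nearest of its condition to the September planar library, at 615 CPM.

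Cnn2 had the same pattern over the runs with a smaller amplitude (adjusted p = 0.00464). July was highest in both conditions, by 2.75-fold over September in planar and 2.52-fold in TE-RMS astrocytes. Deviations from the condition mean on the log2 scale, taken over the 6 libraries, followed those of Tagln with a Pearson r of 0.995. That r describes 6 libraries that share their runs in pairs. July was highest within both conditions for 14.6% of tested genes.

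Tagln2 followed another pattern (adjusted p = 0.00107). October was the lowest library in both conditions, by 8.64-fold under July in planar and 3.64-fold in TE-RMS astrocytes, an order found in 15.1% of tested genes. The log2 change from July to September was -0.12 (standard error 0.27, adjusted p = 0.936), whereas October was below September by -2.35 (standard error 0.28, adjusted p = 0.00189) and below July by -2.47 (standard error 0.28, adjusted p = 0.000843). In Tagln, Cnn1 and Cnn2, by contrast, September was the lowest library in both conditions. However, October over September did not pass the pairwise test in any of these genes (adjusted p = 0.207, 0.223 and 0.384). The pairwise tests called 1.81% of all genes for September over July, 2.06% for October over July and 1.27% for October over September.

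Cnn1 did not pass the joint test of the runs (adjusted p = 0.189). Its planar libraries differed, with September 3.92-fold under July, but its TE-RMS libraries were alike, with September 1.19-fold under July. September over July gave -1.07 on the log2 scale (standard error 0.34, adjusted p = 0.163). The call of Cnn1 depended on the test and on the runs included. Its adjusted p was 0.0177 with limma-voom and, in edgeR, 0.00652 without the July run. It was not called with DESeq2 (adjusted p = 0.0590) or robust edgeR (0.429). Nor was it called in edgeR without the September run (0.983), without the October run (0.158), or under the other scalings and filters. In fits with a library left out, its run kept only the other library, so the spread came from the other runs. The p-values of those fits are not given here.

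Leaving out the run that stood apart ended the call for Cnn2 without July (adjusted p = 0.204) and for Tagln2 without October (adjusted p = 0.889). Tagln passed with any 1 run left out, with an adjusted p of at most 0.0179, reached without July. With the condition left out of the model, which puts the difference between conditions into the residual, none of the 4 passed (adjusted p = 0.9995 for each). Animals, dates and preparations changed together between runs and cannot be told apart.

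**Figure D4:**
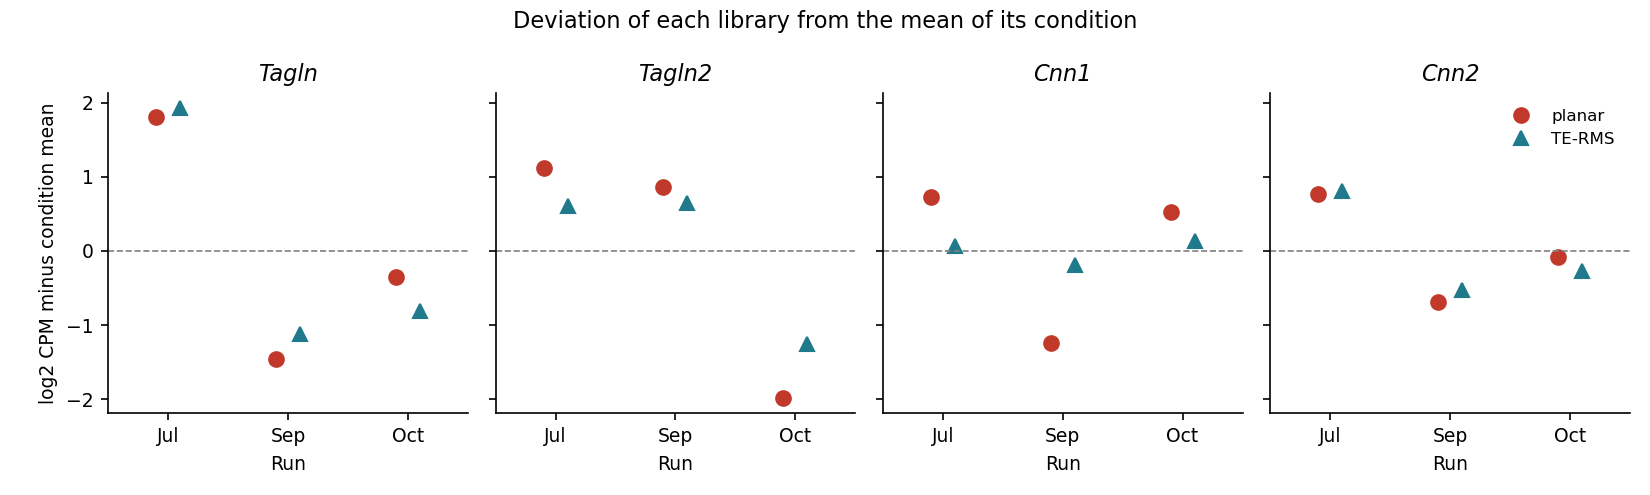
Deviation of each library from the mean of its condition, in log2 CPM, for the 4 genes. The horizontal axis gives the run, circles are planar and triangles TE-RMS libraries. In Tagln and Cnn2 both July libraries lie highest, in Tagln2 both October libraries lie lowest, and in Cnn1 the TE-RMS libraries lie close to 0.

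On log2 CPM, the difference between conditions made up 90.3% of the sum of squares over the 6 libraries for Cnn1, 73.7% for Cnn2, 68.7% for Tagln and 29.6% for Tagln2. Differences between runs made up 66.9% for Tagln2, 30.9% for Tagln, 25.9% for Cnn2 and 6.23% for Cnn1. What neither accounted for was 0.477% for Tagln, 0.434% for Cnn2, 3.58% for Tagln2 and 3.43% for Cnn1. The medians over all tested genes were 28.6% for conditions and 35.4% for runs. Selection on a small p-value for the condition favours a large share for conditions and a small remainder, so these shares are a description only.

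A list of 23 contractile partners of actin was compared with the 4 genes. Names were available for 15 of them, each named only because its p-value for the condition was small, and the other 8 were not analysed here. The 15 had a median log2 fold change of -1.62, where all tested genes had -0.12. All 15 were called lower in TE-RMS astrocytes (9.28% of all tested genes), and in 11 the libraries did not overlap between conditions (all TE-RMS below all planar in 16.1% of tested genes). That selection nearly fixed that these genes were called, though not their direction. The list was also chosen with earlier results of these data known, so nothing is read from these values. Acta2, the smooth muscle actin, had 204, 43.8 and 67.0 CPM in planar and 1.22, 2.39 and 0.0473 CPM in TE-RMS libraries, the last being 3 counts. Myl9, the regulatory light chain of myosin II, had 214, 64.4 and 124 CPM in planar and 29.5, 10.7 and 10.9 CPM in TE-RMS libraries. Flna, the actin crosslinker filamin A, had 701, 212 and 236 CPM against 139, 30.5 and 47.8 CPM. At the shallow end stood the cytoplasmic actins Actb and Actg1, with log2 fold changes of -0.99 and -0.77 and libraries that overlapped between conditions.

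The runs also differed in this list. The joint test of the run terms called 9 of the 15, against 3.21% of all genes and 11.8% of those with a paired identifier, and July was highest in both conditions in 11 of the 15, against 14.6% of all tested genes. Flna (adjusted p = 0.000514), Lmod1, which encodes the actin nucleator leiomodin 1 (0.00204), and Myl9 (0.00596) had the order of Tagln and Cnn2, with July highest. Tpm2, beta-tropomyosin, was called as well (adjusted p = 0.00556) but had 453, 387 and 118 CPM in planar and 106, 143 and 52.1 CPM in TE-RMS libraries, and thus the low October libraries of Tagln2. Tpm1, alpha-tropomyosin, had a low September planar library, at 365 CPM against 1142 and 821 CPM, as Cnn1 did, and was not called (adjusted p = 0.139).

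**Figure D5:**
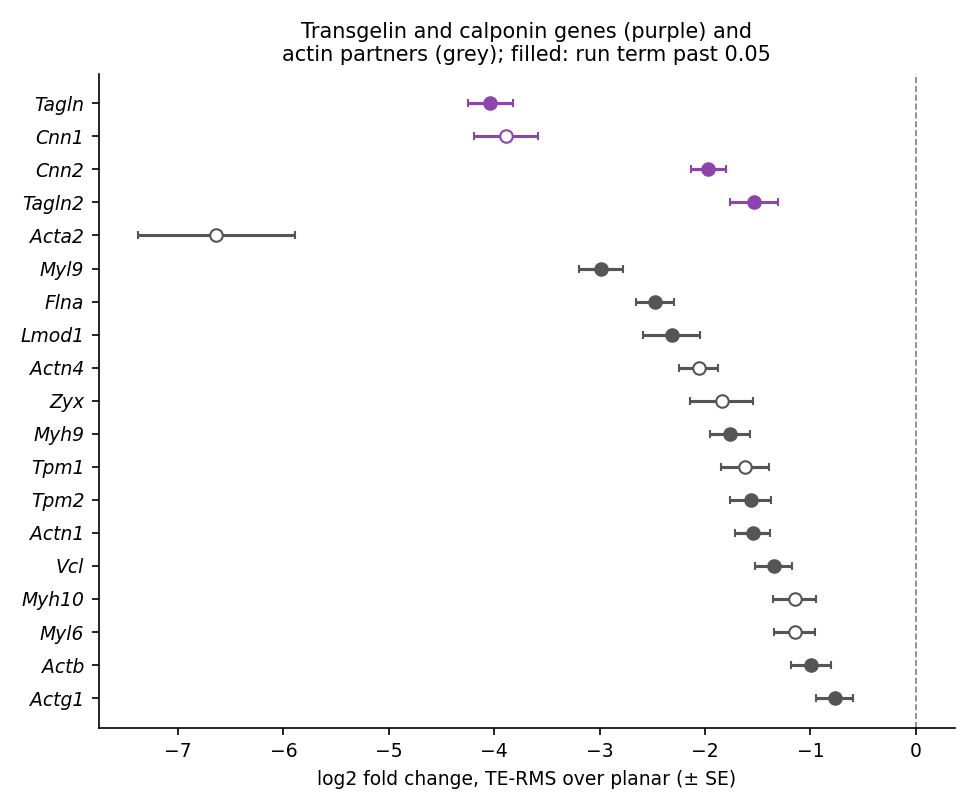
Log2 fold change of TE-RMS over planar astrocytes, with its standard error, for the 4 genes (purple) and the 15 contractile partners (grey). Filled circles passed the joint test of the run terms at an adjusted p of 0.05, and open circles did not. Tagln and Cnn1 lie lower than every partner except Acta2.

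Of a list of 11 genes of the SRF arm, 7 had a paired name, by the same selection on the condition. All 7 were called lower (9.28% of all tested genes) without overlap between conditions (16.1%), with a median log2 fold change of -2.82, and nothing is read from these values either. Srf itself had 18.7, 9.66 and 13.9 CPM in planar and 2.29, 1.25 and 2.46 CPM in TE-RMS libraries. Ccn2, a matricellular gene, had 2843, 3584 and 6737 CPM in planar and 434, 692 and 1047 CPM in TE-RMS libraries. July was highest in both conditions in 0 of the 7, near the 14.6% of all tested genes, and a difference from the contractile list was not tested. The run terms passed in 2 of them, against 3.21% of all genes and 11.8% of those with a paired identifier, Klf2 (adjusted p = 0.00277) and Ccn2 (adjusted p = 0.0146), with October low in Klf2 and high in Ccn2.

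Markers of other cell types were examined beside these values, as Tagln and Cnn1 also mark smooth muscle and mural cells. Of 15 smooth muscle and mural markers, 3 had a paired name, Acta2, Lmod1 and Cspg4. Their summed level was 260, 59.2 and 97.3 CPM in planar against 17.0, 5.07 and 4.14 CPM in TE-RMS astrocytes. The sum was highest in July in both conditions, but of the 3 genes only Lmod1 was. Acta2 was highest in September among TE-RMS libraries, and Cspg4 was highest in October among planar and in September among TE-RMS libraries. Acta2 and Lmod1 are also in the contractile list. Unadjusted for length, Acta2 gave the most counts of the 3 in every planar library and in the September TE-RMS library, and Lmod1 in the July and October TE-RMS libraries. None of the 3 was at 0 in any library. The part of such cells in the levels of the 4 genes was not tested.

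Of 5 fibroblast markers, Col1a1 and Col1a2 could be named, with a summed level of 433, 337 and 587 CPM in planar and 129, 122 and 216 CPM in TE-RMS libraries. October was highest in both conditions. Of the 4 genes, only Cnn1 was highest in October in either condition, in TE-RMS libraries, at 14.2 CPM against 13.6 CPM in July. Whether fibroblasts had a part in the levels of the 4 genes was not tested. Col1a1 passed the joint test of the runs (adjusted p = 0.0235) and Col1a2 did not (adjusted p = 0.134). Of 10 astrocyte markers, Slc1a3, Gja1 and Slc1a2 could be named, again only through their small p-values for the condition, and all 3 were called higher in TE-RMS astrocytes (9.36% of all tested genes). The other 7 were not analysed here, so the list as a whole was not described. Slc1a3, a glutamate transporter, had 241, 254 and 275 CPM in planar and 722, 674 and 882 CPM in TE-RMS libraries, and Gja1, a connexin of gap junctions, had 275, 282 and 222 CPM against 543, 814 and 862 CPM. Neither passed the test of the runs (adjusted p = 0.727 and 0.788 in edgeR's joint test). Of 3 neuronal markers Snap25 could be named, at 0.0148, 3.92 and 0.0496 CPM in planar and 0.46, 60.8 and 3.50 CPM in TE-RMS libraries. It passed the joint test of the runs (adjusted p = 4.35e-05). September, its highest run in both conditions, was the lowest run of Tagln, Cnn1 and Cnn2. Whether neuronal cells had a part in the run differences of the 4 genes was not tested. No marker of microglia or oligodendrocytes had a paired name.

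The genes with a paired name whose log2 CPM over the 6 libraries was most like each member were ranked by Pearson r. The libraries share conditions and runs, so a high r in large part restates the difference between conditions for Tagln, Cnn1 and Cnn2 and that between runs for Tagln2. Those most like Tagln were Ap1b1 (r = 0.998), Pcsk7 (0.991), Flna (0.991), Cav1 (0.990) and Fam124a (0.988), and Cnn2 had Pcsk7 (0.993), Ehd2 (0.993), Myl9 (0.992), Cav1 (0.992) and Ap1b1 (0.992). Cav1 encodes caveolin 1 and Ehd2 an ATPase at the neck of caveolae. The 2 lists shared 3 of 5 genes, among them Pcsk7, which overlaps Tagln and may share its reads. Tagln and Cnn2 were themselves related with an r of 0.997. Cav1 fell less than either, from 3049, 1803 and 2178 CPM in planar to 1515, 1142 and 1135 CPM in TE-RMS libraries.

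Cnn1 was most like Slc39a13 (r = 0.994), Pmepa1 (0.994), Tmed9 (0.994), Tmsb10 (0.993) and Hs6st1 (0.992). Pmepa1, a feedback inhibitor of TGF-beta signalling, had 361, 91.3 and 368 CPM in planar and 14.7, 8.51 and 18.2 CPM in TE-RMS libraries, with the low September planar library of Cnn1. Tmsb10 encodes a thymosin that binds actin monomers. Tagln2 was most like Prss3b (0.972), Hspb7 (0.968), Tpm2 (0.966) and Trim47 (0.965). Prss3b and Hspb7 were near the floor in October, at 0.165 and 0.265 CPM in the planar and 0 CPM in the TE-RMS library. Their r thus rests in part on very low counts. No gene was among the 5 of both transgelins or of both calponins.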

How the data were processed

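The 6 libraries of rat astrocytes were grouped by the condition and run in their labels. By the submitters' processing notes and the methods, the authors used fastp for trimming and Salmon for quantification, with Ensembl transcripts of mRatBN7.2 as the reference, and summed transcripts to genes. The deposited values are estimated counts, already whole numbers, so rounding them changed nothing. Salmon divides reads between similar transcripts by probability.

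A total of 10 or more counts was required of a gene, which 16331 of 23940 met. TMM factors and quasi-likelihood fits came from edgeR 4.0.16 (R 4.3.3), with condition and run as terms and Benjamini-Hochberg adjustment over all tested genes at a threshold of 0.05. The prior count was 0.125 for fitted log2 fold changes, with standard errors from the F statistic, and 2 for other log2 CPM. DESeq2 1.42.0 and limma 3.58.1 were alternatives. The run is a block because the study's methods pair the libraries of one run, and deviations from the condition means correlated at 0.18 to 0.27 between libraries of the same run. The scripts were tested on simulated data.

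The members, lists and named genes were chosen with earlier results of these data known. Named genes are the members, the paired genes of the lists, and the 5 genes most like each member by Pearson r, of which 1 is not reported here. Pairwise tests of runs were added after the data were seen. Gene names and coordinates come from the 1517 genes read from the study's gene table, whose fold changes and p-values were not used. Per coding length no levels could be given, since no protein or transcript lengths were used here.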

Additional observations from a re-analysis of the deposited data

How the results depend on the processing

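Levels and ratios within runs of the 4 genes kept their direction and stayed within 1 SD under DESeq2 size factors, upper-quartile scaling and plain CPM. Over all genes, the number that differed between runs was 525, and became 224 with at least 10 counts in at least 3 libraries (all 224 among the 525), 1257 with DESeq2, 1 with no condition term and 366 to 1317 with 1 run or library left out, lowest without the October run, highest without the July planar library and 1161 without the July TE-RMS library. Of the 4 members, 3 were called, 2 to 3 with a run left out, and 0 with no condition term. That model puts the difference between conditions into the residual, and whether anything else led to the loss of calls was not tested. Where 1 library was left out, its run kept only the other library, and the spread in the tests of runs came from the other runs. Genes called lower and higher between conditions numbered 1516 and 1528, and 733 and 708 with no replicate block. With runs or libraries left out they ranged from 955 to 1721 lower and from 1007 to 1707 higher, and lower calls numbered 956 without the October run, 955 without its planar and 980 without its TE-RMS library, while higher calls numbered 1007 without the September TE-RMS library. The cause was not tested. The mean log2 change of Tagln to Cnn1 was -0.16 and ranged from -0.55 to 0.20 with a run left out, reversed without September. That of Tagln2 to Cnn2 was 0.44 and ranged from -0.025 to 0.72, reversed without October. Of the 20 places in the lists of most-alike genes (5 for each member, some genes in more than 1 list), 3 were kept with Spearman's rho, on which 70 named genes tied at 1 with Tagln, and 8 after removing condition means. Division by coding length was not run. Depth limited no value of the 4 genes.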

Other observations

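When the mean of each condition was taken off log2 CPM, the named gene whose deviations over the 6 libraries were most like those of Tagln was Aldh1a1 (Pearson r = 0.997), which was also the one most like Cnn2 (0.999). Aldh1a1, an enzyme that makes retinoic acid, had 188, 24.1 and 55.1 CPM in planar astrocytes (July, then September, then October) against 873, 118 and 168 CPM in TE-RMS astrocytes. Its libraries had the order of Tagln over the runs in both conditions, with July highest and September lowest, whereas it was higher and Tagln lower in TE-RMS astrocytes. Myl9 was the gene of the contractile list most like both (0.984 and 0.988).

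Among genes with a paired name, the deviations of Tagln2 were most like those of Atf2 (0.996), Htr2a (0.996), Arsk (0.994), Klf2 (0.993) and Trim47 (0.990). Atf2, a transcription factor gene, had 54.8, 54.4 and 36.2 CPM in planar and 151, 158 and 118 CPM in TE-RMS libraries, and Klf2, a shear-responsive transcription factor gene, had 64.2, 62.0 and 12.9 CPM in planar and 5.63, 6.54 and 1.73 CPM in TE-RMS libraries. Atf2, Htr2a and Arsk did not pass the test of run differences in edgeR (adjusted p = 0.307, 0.215 and 0.262), whereas Klf2 and Trim47 did (0.00277 and 0.0153). Each r describes 6 libraries that share their runs in pairs.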
